A study of Mus musculus with 13 samples.

Results

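The transcriptome described here is that of control microglia from mice on postnatal day 4, as 5 RNA-seq libraries (CON 1 to CON 5) of 13 in the series. The 5 libraries were taken by their titles, which name the control group and replicates 1 to 5 and do not mark the library as excluded. Whole brains without meninges were digested with papain, cells carrying the surface protein CD11b were pulled out on magnetic beads, and full-length cDNA was made from poly(A) RNA with a modified Smart-Seq2 protocol. The remaining 8 libraries are 5 from pups after maternal immune activation and 3 that the titles mark as excluded (1 of them a control), and they take no part in the values below. The sources used here give no strain, sex, litter or treatment of the control dams, and do not say whether an RNA sample came from 1 pup or several. The spread among the 5 libraries is therefore the spread between these samples, which may in part be technical, and CD11b beads also bind other myeloid cells.

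Microglia are the resident macrophages of the brain. They derive from yolk sac progenitors, depend on signalling through the receptor Csf1r, and in the first postnatal weeks they divide, prune synapses and clear dying cells and myelin debris. Much of that work ends in the lysosome, where proteases, lipases and glycosidases break down what was engulfed. In adult brain the cells are mostly quiescent and are recognised by genes such as P2ry12, Tmem119 and Cx3cr1, whereas a subset of early postnatal microglia near developing fibre tracts carries genes such as Spp1, Itgax and Gpnmb that are also seen around amyloid plaques.

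Levels of 1 gene across libraries are given as CPM, a gene's counts relative to a fixed library total, after scaling by TMM, which adjusts library sizes so that most genes match. Levels of different genes are compared as TPM, in which counts are divided by exon length before they are scaled to the same total in each library; CPM is used across genes only for thresholds, for sums over a list and to list values. Values after ± are SDs over the 5 libraries, and 5 values in a row stand for CON 1, CON 2, CON 3, CON 4 and CON 5 in that order. Libraries held 27900092 to 35593505 counts, so that 3 counts, the limit that a count of 0 allows, were 0.0853 to 0.105 CPM. A mean of at least 1 CPM was reached by 13456 genes, of which 12824 code for proteins, and a mean of at least 10 CPM by 8541. Between 14.9 and 18.3% of each library fell on CT010467.1, an rRNA gene, and the 100 most abundant genes together took 40.2 ± 1.16%. The share of mitochondrial rRNA was 1.897% for CON 1 and between 1.11 and 1.24% for the rest.

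Among the libraries, 3 divisions recur below and bear on the values given. CON 1 was the lowest of the 5 for 3215 of the 8541 genes with a mean of at least 10 CPM (37.6%), against 1139 to 1566 genes for each other library. CON 1 and CON 2 lay together below CON 3, CON 4 and CON 5 for immediate early, cytokine and hemoglobin genes. They did so for 19.7% of all genes with a mean of at least 10 CPM. CON 1, CON 4 and CON 5 lay above CON 2 and CON 3 for choroid plexus genes. CON 3 and CON 5 differed by at least 2-fold for 98 genes and CON 4 and CON 5 for 97, whereas CON 1 and CON 3 did so for 551. What sets the libraries apart is not given in the labels and was not tested.

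The genes that mark microglia were abundant in all 5 libraries. Csf1r, the receptor for CSF1 and IL-34, had 7530.4, 7423, 6527, 5752 and 6642 CPM. Cx3cr1, the receptor for the neuronal chemokine fractalkine, had 4673, 5495, 5331, 4561 and 4877 CPM. C1qb, a chain of the complement starter C1q, had 3186, 3579, 3279, 3075 and 3250.1 CPM, and the lipid carrier Apoe had 13921, 11682, 10759, 9254 and 10638 CPM. All 4 genes lay above 1000 CPM in every library, a level that 76 genes reached on average, and none differed by more than 1.504-fold between the highest and the lowest library. On the length-scaled measure Apoe stood at 16398 ± 3107 TPM, C1qb at 8029 ± 519, Csf1r at 3708 ± 497 and Cx3cr1 at 2953 ± 245. In CON 1, where Apoe was highest, the summed astrocyte and choroid plexus genes were highest too. The share of Apoe RNA from other cells was not tested.

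The ranking by TPM began with cytoskeletal, lipid-transport, iron-storage and lysosomal genes. Actb (beta-actin) came first with 20094 ± 1248 TPM, followed by Apoe and by Ftl1, the ferritin light chain, with 13922 ± 1175 TPM. Ttr, the thyroxine carrier of the choroid plexus, had the next highest mean, but its 5 values ran from 22.6 to 15088 CPM, so that its place rests on CON 1, CON 4 and CON 5. Next came Ctsd (cathepsin D, an aspartic protease of the lysosome) with 11467 ± 1646 TPM and Cst3 (cystatin C, an inhibitor of cysteine cathepsins) with 11368 ± 978 TPM. The translation factor Eef1a1, the actin-binding peptide Tmsb4x and C1qb lay so close together, between 8029 and 8186 TPM, that their order is within the spread of the libraries.

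Of the 20 named genes with the highest TPM, 4 encode lysosomal enzymes, among them Ctsd, Lgmn (an asparaginyl endopeptidase) and Ctss (cathepsin S). Lgmn reached 5504 ± 711 TPM and Ctss 5358 ± 855 TPM. The selenium carrier Selenop had 6951 ± 401 TPM, C1qc 5125 ± 393 TPM, and Tyrobp, the signalling adaptor of Trem2, 4917 ± 565 TPM. Near the end of the 20 stood Spp1 (osteopontin) with 388, 3040.1, 2566, 4212 and 4997 CPM, and CON 1 lay far below the rest. Mitochondrial transcripts in the same range were mt-Atp6, mt-Co1, mt-Nd1 and mt-Cytb. Gm28437, a nuclear copy of mitochondrial sequence at 7448 ± 1169 TPM, shares reads with them and is uncertain. With the length of the longest transcript in place of all exons, 19 of the 20 genes stayed in the 20, and 13 were also among the 20 named genes highest by CPM.

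**Figure D1:**
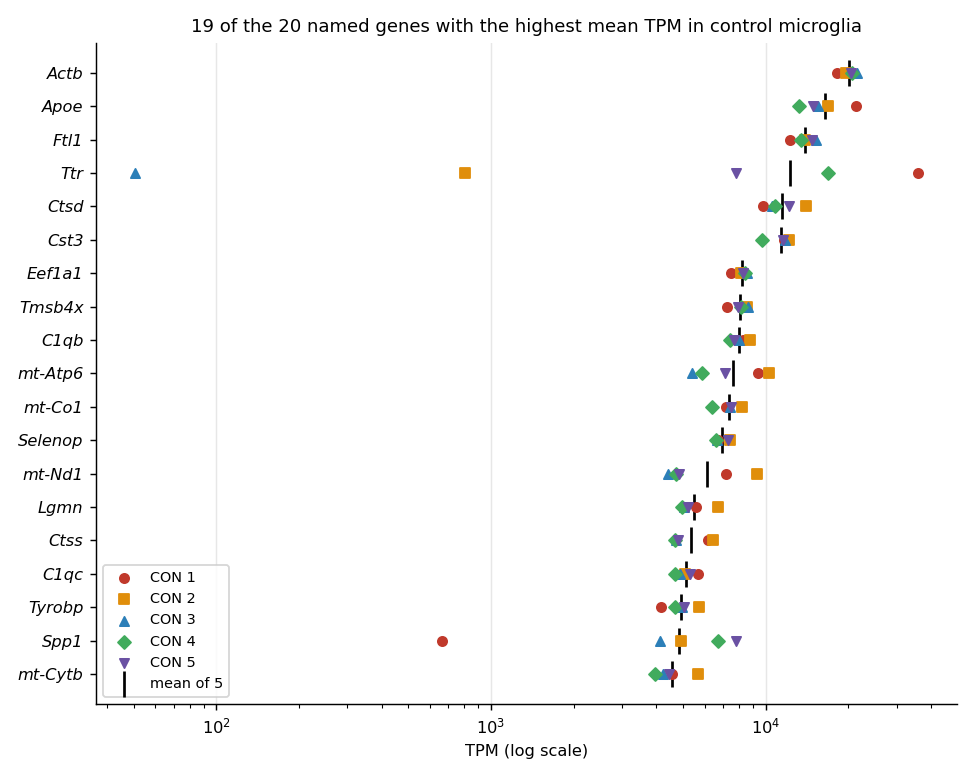
TPM (x axis, log scale) of 19 of the 20 named genes with the highest mean TPM (y axis). Each symbol is 1 of the 5 control libraries and the black bar is their mean. Most genes keep their 5 libraries within a narrow band, whereas Ttr runs over several decades and Spp1 is low in CON 1.

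For most genes the 5 libraries lay close together. Among the 8541 genes with a mean of at least 10 CPM, the median ratio of the highest to the lowest library was 1.38, and for 1 gene in 10 it was under 1.17. At least a 2-fold difference between extreme libraries was found for 983 genes, 11.5% of those considered, and at least a 4-fold difference for 264, or 3.09%. The 11.5% is the background for the counts of list members given below. Just outside and inside the 2-fold threshold, 196 genes had a ratio from 1.9 to 2 and 141 a ratio from 2 to 2.1. The 2-fold share was 17.2% among the 3679 genes with a mean between 10 and 30 CPM and 6.47% among the 1500 genes between 100 and 1000 CPM. CON 1 held the highest value for 161 of the 264 genes that were 4-fold apart, and CON 5 for 66. Of all 8541 genes, CON 1 held it for 21.7% and CON 5 for 16.8%. Without CON 1, 526 of the 8541 genes were 2-fold apart.

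Among genes with a mean of at least 50 CPM, the steadiest was Rpl22, a ribosomal protein. It had 63.9, 64.3, 64.2, 63.3 and 63.2 CPM, an SD of log2 CPM of 0.01. Sbno1, the coatomer subunit Copg1, the co-chaperone Sgta, the histone variant H2afv and the chromatin scaffold Wdr5 followed, none above 0.03 log2. In all, 4 genes of mitochondrial energy metabolism stood among the 12 steadiest: Uqcrc1 and Uqcrh of respiratory complex III, Ndufv1 of complex I and Idh2 of the citrate cycle. The RNA-binding protein Pcbp2 and the kinase Map3k11 completed the 12. Uqcrc1 had 289, 291, 302, 296 and 291 CPM. Of 18 commonly used reference genes, 0 were 2-fold apart, and the narrowest was Ywhaz with 1149 to 1243 CPM. Gapdh had 1138, 1076, 1167, 1456 and 1400.4 CPM and Actb 12380.0, 14132, 15539.7, 15099 and 15304 CPM.

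At the other end, the 12 named genes with the largest SD of log2 CPM were Ttr (3.83), Hbb-bt, Folr1, Cxcl2, Hba-a2, Hba-a1, Cxcl10, Ptgs2, Hbb-bs, Dusp2, Col9a3 and Tnf (2.08). Ptgs2, the inducible cyclooxygenase, had 2.74, 5.06, 65.8, 86.4 and 97.2 CPM, with CON 1 and CON 2 both far below the other libraries. Col9a3, a collagen chain, had 172, 6.57, 5.46, 70.4 and 39.02 CPM and followed the choroid plexus genes, with CON 1 highest and CON 2 and CON 3 lowest. The alpha and beta globin genes are near-identical copies whose reads the counting may have split, so each one alone is uncertain.

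**Figure D2:**
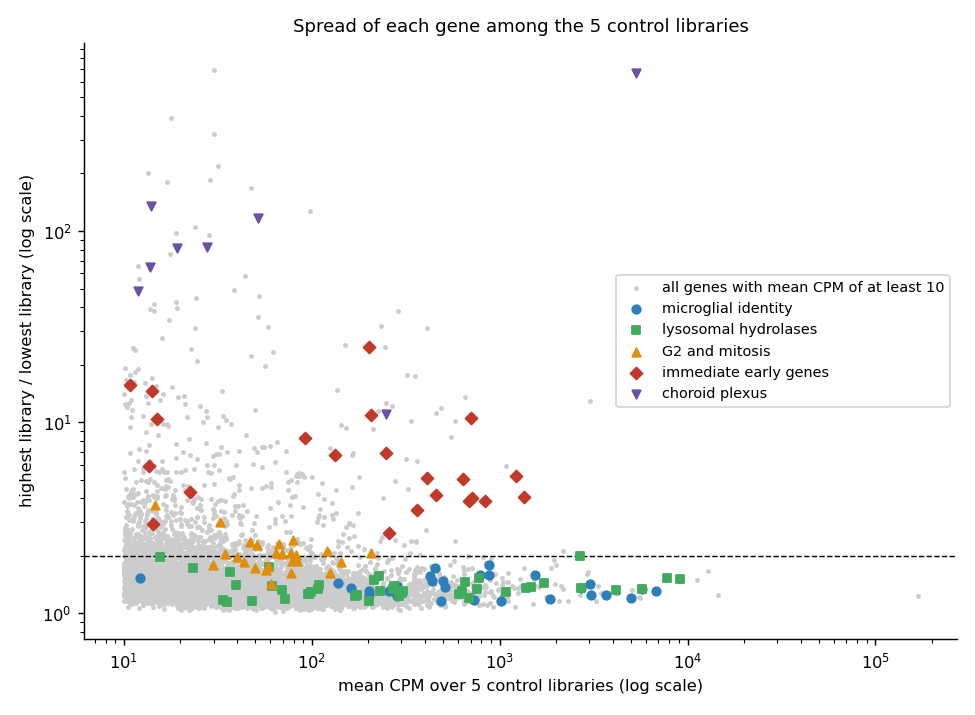
Ratio of the highest to the lowest control library (y axis, log scale) against mean CPM (x axis, log scale) for the 8539 genes with a mean of at least 10 CPM and a count in every library. Microglial identity and lysosomal hydrolase genes lie under the dashed line at 2-fold, immediate early and choroid plexus genes above it, and the genes of G2 and mitosis around it.

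The genes that define microglia lay close together in the 5 libraries, as most genes did. All 28 genes of the microglial identity list reached 10 CPM, and 0 of 28 were 2-fold apart, beside 11.5% of all genes; their median ratio was 1.36 against 1.38. P2ry12, the ADP receptor that steers process movement, had 1504, 1979.7, 1402, 1252 and 1547 CPM. The widest of the list was Ly86, a partner of the TLR-like protein Cd180, with 606, 1079, 879.7, 939 and 899 CPM, in which CON 1 was lowest. Tmem119 had 561, 597, 443, 402 and 479 CPM, the lectin Siglech 728, 793, 750.2, 675 and 722 CPM and Itgam, which encodes CD11b itself, 443, 516, 515, 474 and 496 CPM. In the mean over the list, CON 2 was the highest library: the list levels were 9.37, 9.63, 9.45, 9.35 and 9.44 log2 CPM. CON 2 held the top value in 21 of 28 genes, beside 21.7% of all genes.

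Per length, Cst3, Ctss, Csf1r and Fcrls were among the highest of the identity list, with Fcrls, an Fc receptor-like protein, at 3543 ± 369 TPM. Tmem119 lay lower, at 593 ± 109 TPM, and Siglech at 596 ± 43.04 TPM. Sall1, the transcription factor that holds microglial identity, had 167, 145, 133, 126 and 115 CPM and 69.9 ± 12.6 TPM, and its relative Sall3 4.63 ± 0.902 TPM.

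Of 20 myeloid transcription factors, 17 reached 10 CPM and 1 of these was 2-fold apart, beside 11.5% of all genes. Spi1, which encodes PU.1, had 293, 307, 368, 323 and 349 CPM, Irf8 306, 325, 341, 288 and 317 CPM and Mef2c 310.4, 362, 349, 343 and 325 CPM, none more than 1.25-fold apart. Per length Spi1 led the list at 429.7 ± 32.4 TPM. The exception was Cebpb, a factor of the acute-phase response, with 5.35, 0.492, 33.5, 6.99 and 48.2 CPM: CON 3 and CON 5 were high, the others low, and CON 2 nearly empty. Its relative Cebpa stayed between 5.58 and 9.89 CPM.

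**Figure D3:**
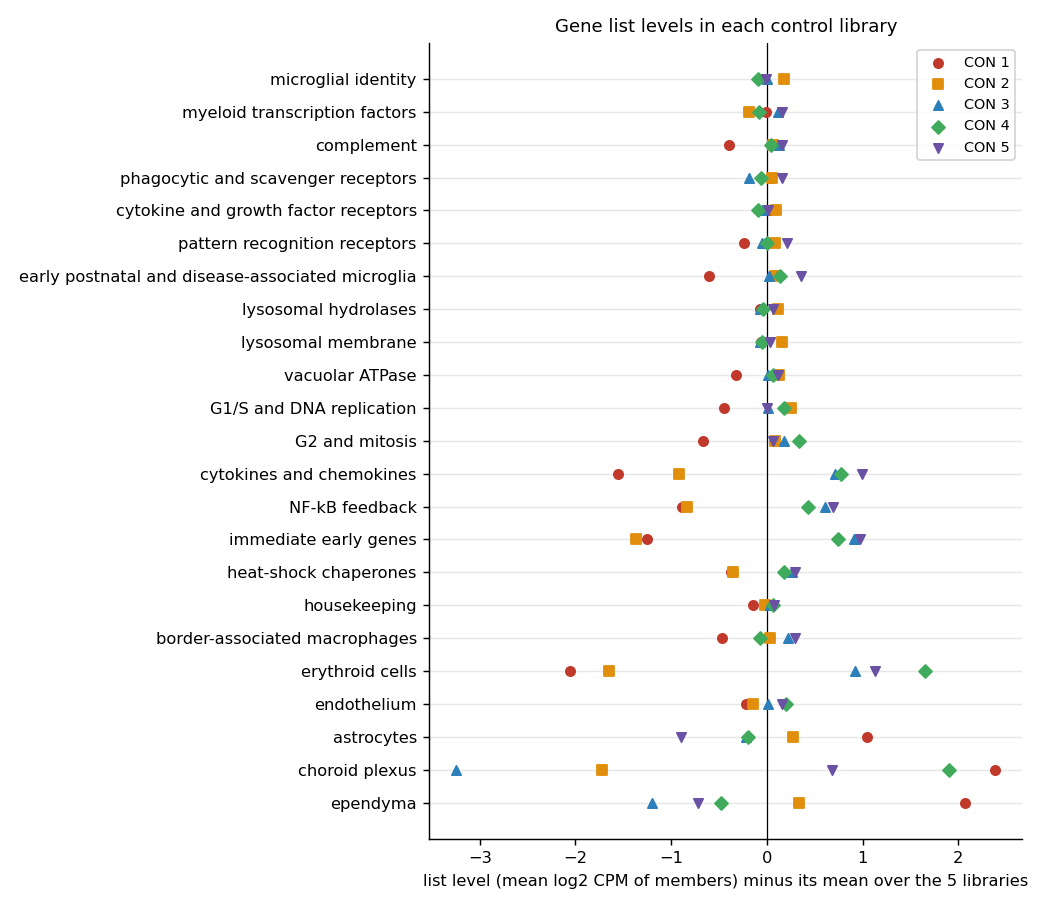
Level of each gene list in each control library (mean log2 CPM over its measured members), as the difference from the mean of the 5 libraries on the x axis. The lists of microglial identity, cytokine and growth factor receptors, lysosomal hydrolases and lysosomal membrane span at most 1.21-fold. CON 1 is lowest for complement, vacuolar ATPase, cell cycle and early postnatal lists, CON 1 and CON 2 are lowest for cytokine, NF-kB feedback, immediate early, heat-shock and erythroid lists, and choroid plexus genes spread most widely of the lists shown.

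Among complement genes, the C1q chains stood far above the rest. The 3 chains of C1q, which opens the classical pathway and tags synapses for removal, stood at 8029 ± 519 TPM for C1qb, 5125 ± 393 TPM for C1qc and 4518 ± 440.5 TPM for C1qa. C1qa had 1864, 1822, 1799, 1529 and 1782 CPM, and none of the 3 genes differed by more than 1.22-fold. Later components were scarce per length: C4b had 7.902 ± 2.29 TPM, C2 33.02 ± 8.898 TPM and C3 4.81 ± 0.362 TPM. Of 13 complement genes at 10 CPM or more, 4 were 2-fold apart, beside 11.5% of all genes: the receptor C5ar1, Itgax, C2 and C4b. CON 1 was the lowest library for all 4, and without it 0 of 13 were. The list level of CON 1 was 6.97 log2 CPM and those of the other 4 libraries 7.41 to 7.52. That level weighs scarce and abundant members alike. Summed over the list, CON 4 was lowest with 8922 CPM, and CON 1 had 9199 CPM.

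Of 19 phagocytic and scavenger receptors at 10 CPM or more, 1 was 2-fold apart, beside 11.5% of all genes, and 0 without CON 1. Tyrobp and Fcer1g, adaptors that carry the activating motif for many of these receptors, stood at 4917 ± 565 and 2478 ± 214 TPM, above the receptors Fcgr3 (2023 ± 213 TPM) and Trem2 (1696 ± 151 TPM). Trem2, the lipid receptor that signals through Tyrobp, had 610.2, 795, 789, 690.2 and 754 CPM. The exception was Axl, a receptor for phosphatidylserine bridged by Gas6, with 271, 168, 95.8, 112 and 112 CPM, highest in CON 1. Mertk, of the same kinase family, had 164, 219, 188, 171 and 193 CPM, and the third member Tyro3 1.62 to 9.54 CPM. Marco, a scavenger receptor of other macrophages, had 0.114 to 4.13 CPM.

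Lysosomal genes were abundant and varied little. The 94 genes of 4 lists (hydrolases, activators and transfer proteins, membrane proteins and the proton pump) together took 6.53% of all counts. Of the 91 that reached 10 CPM, 1 was 2-fold apart. Among cathepsins, Ctsd per length had 11467 ± 1646 TPM, Ctss 5358 ± 855, Ctsb 4370.1 ± 615 and Ctsz 3179.8 ± 361. Ctsb, a cysteine protease, had 5906, 9059.7, 7484, 7588 and 8954 CPM, and Ctsd 7374, 11189, 8464, 8744 and 10066 CPM, in both cases lowest in CON 1 and highest in CON 2.

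Among 43 hydrolases at 10 CPM or more, 0 were 2-fold apart, and the median ratio was 1.34. Ctsl (cathepsin L) came closest, with 1626, 2894, 2605, 2984 and 3244 CPM; it lay just under the 2-fold line and crosses it when libraries are scaled to total counts or by DESeq2 size factors, and 1 hydrolase is 2-fold apart without CON 2 or without CON 3. The glycosidases Hexa, Gusb and Man2b1 stood at 1439 ± 132, 535 ± 51.1 and 966 ± 127 TPM. Galc, which breaks down the myelin lipid galactosylceramide, had 45.7, 42.2, 27.8, 30.96 and 35.8 CPM. Ctsk and Acp5, enzymes of bone-resorbing osteoclasts, were the 2 hydrolase genes under 10 CPM on average, with 4.63 to 6.06 and 3.89 to 10.2 CPM.

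Of 9 activators and transfer proteins that help these enzymes, 0 were 2-fold apart, beside 11.5% of all genes. Grn (progranulin, a regulator of lysosomal function) had 2479, 3021, 2564, 2419.6 and 2918 CPM, and Psap (prosaposin, the precursor of sphingolipid activators) 1915, 1619, 1473, 1392 and 1664 CPM. Lamp1, a main membrane glycoprotein, had 2054, 2134, 1977, 1941 and 2254 CPM, and 0 of 22 membrane genes were 2-fold apart. Cd68, often used as a mark of phagocytic activity, had 457, 764, 703, 693 and 778 CPM, with CON 1 lowest. In the vacuolar ATPase, the pump that acidifies the lysosome, 16 of 17 subunit genes stayed under 2-fold, such as Atp6v0c with 534, 605, 609, 589.6 and 705 CPM. The exception was Atp6v0d2, a subunit variant of osteoclasts and other macrophages, with 1.996, 28.5, 20.6, 30.3 and 41.6 CPM: CON 1 was 20.8-fold below CON 5, whereas its paralog Atp6v0d1 kept 189.9 to 219 CPM. CON 1 was the lowest library in 14 of the 17 pump genes, beside 37.6% of all genes. Of the transcription factors that drive lysosomal genes, Tfe3 had 117, 123, 147, 125 and 157 CPM and Tfeb 6.63 to 11.6 CPM.

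Many lysosomal promoters carry the letters CACGTG, the core of the element bound by TFEB and its relatives. In RefSeq promoters (GRCm38.p6, the 250 bases before each gene start, both strands searched), these letters stood in 11 of 41 windows of hydrolase genes (26.8%) and 6 of 23 windows of membrane genes (26.1%), beside 6.02% of all 32851 windows. They also stood in 5 of 25 windows of immediate early genes. A match is a description of letters and not a shown binding site. The 3 stretches below, with CACGTG in capitals, belong to 2 abundant hydrolases and to the membrane protein Lamp1, with 4 matches within a short run.
Ctsd: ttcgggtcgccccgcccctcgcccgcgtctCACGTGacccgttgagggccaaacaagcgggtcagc
Lgmn: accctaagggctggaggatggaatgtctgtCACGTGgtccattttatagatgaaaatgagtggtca
Lamp1: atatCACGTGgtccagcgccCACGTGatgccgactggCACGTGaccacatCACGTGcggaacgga
They lie at chr7:142387890-142387955, minus strand (Ctsd), chr12:102439106-102439171, minus strand (Lgmn) and chr8:13159096-13159160, plus strand (Lamp1), and are read 5′ to 3′ along the gene. In CPM, Lgmn had 3975, 5088, 3832, 3816 and 4106, with CON 2 above the rest.

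Of 23 receptors for cytokines and growth factors at 10 CPM or more, 0 were 2-fold apart. Csf1r was far above the others per length; next came Ifngr1, the ligand-binding chain of the interferon-gamma receptor, with 696 ± 131 TPM, and Il10rb, shared by IL-10 family receptors, with 248 ± 39.7 TPM. Tgfbr1 and Tgfbr2, through which TGF-beta keeps microglia in their mature state, had 189 ± 46.9 and 156 ± 14.5 TPM. Tgfbr1 was the widest of the group, with 512, 605, 349, 407 and 387 CPM, highest in CON 1 and CON 2, while Tgfbr2 had 437, 447, 528, 441 and 548 CPM. Il10ra had 259, 239, 246, 209 and 229 CPM and the type I interferon receptor chain Ifnar1 108, 159, 132, 132 and 140.4 CPM. Il1r1, the signalling receptor for IL-1, was low at 3.34 to 6.51 CPM.

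Of 6 nucleotide and adenosine receptors at 10 CPM or more, 0 were 2-fold apart, but their median ratio of 1.51 was wider than the 1.38 of all genes. P2ry12 had 1679.8 ± 303 TPM, P2ry13 829.8 ± 161, P2ry6, the UDP receptor linked to phagocytosis, 492 ± 88.9, and the ATP-gated channel P2rx7 78.3 ± 12.2. The adenosine receptor Adora3 had 65.2, 73.03, 58.6, 44.6 and 47.7 CPM, while Adora2a, Adora1 and Adora2b stayed under 10 CPM in every library. The dopamine receptors Drd1 and Drd2 had at most 0.271 and 0.247 CPM.

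Among chemokine, lipid and peptide receptors, 3 of 13 were 2-fold apart, beside 11.5% of all genes: Gpr84, C5ar1 and Gpr65. Without CON 1 the count was 1. Gpr84, a receptor for medium-chain fatty acids, had 76.2, 89.4, 488, 469.8 and 462 CPM, and CON 1 and CON 2 lay far below CON 3, CON 4 and CON 5. Gpr34, the lysophosphatidylserine receptor, had 669.6, 1069.7, 861, 881 and 887 CPM. Ccr2, the receptor of blood monocytes, had 2.67, 4.39, 3.95, 3.27 and 7.27 CPM and Fpr2 0.240 to 2.47 CPM.

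Pattern recognition receptors sense microbial products, and 5 of 17 were 2-fold apart, beside 11.5% of all genes: Cd14, Clec7a, Tlr2, Tlr8 and Cd180. Cd14, the co-receptor for lipopolysaccharide, had 125, 130.3, 404, 405 and 562 CPM and Tlr2, the lipoprotein receptor, 208, 255, 415, 428 and 497 CPM. In both, CON 1 and CON 2 were below the other 3 libraries, as they were for 19.7% of all genes. Tlr4, the lipopolysaccharide receptor itself, had 95.8, 133, 83.6, 89.3 and 92.7 CPM and the RNA sensor Tlr7 177, 213, 149.8, 170.4 and 175 CPM, with CON 2 highest in each. Per length Cd14 led at 522 ± 297 TPM, with Tlr2 at 317 ± 100.3, Tlr7 at 119 ± 16.1 and Tlr4 at 48.3 ± 9.82 TPM. Without CON 1, 1 of the 17 genes was 2-fold apart, and without CON 5, 3.

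Inhibitory receptors, which restrain myeloid activation, varied as genes in general did: 1 of 14 (Cd22) was 2-fold apart, beside 11.5% of all genes, and the median ratio was 1.38 in both. That count was 0 without CON 1 or with scaling to total counts, and 2 without CON 3. Sirpa, which reads the signal CD47, had 1719, 1941, 1789.5, 1598 and 1892 CPM, Vsir 636, 693, 657, 596 and 655 CPM and Cd33 406, 438, 371, 353 and 377 CPM. Lag3 had 174, 265, 274, 282 and 336 CPM, and Cd200r1, the receptor for neuronal CD200, 15.9, 30.8, 21.01, 19.8 and 26.5 CPM. CON 1 was lowest for Lag3 and Cd200r1.

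Proliferation genes were expressed in every library. Replication genes included Pcna, the sliding clamp of DNA polymerase, with 126, 224, 196, 223 and 194 CPM, and Mcm6, a subunit of the replicative helicase, with 163, 263, 222, 233 and 196 CPM. Mitotic genes included Top2a (topoisomerase II alpha) with 123, 218, 239.6, 254 and 195 CPM and Cdk1, the mitotic kinase, with 91.8, 125, 129, 149 and 129 CPM. Mki67, the gene of the Ki-67 antigen, had 52.9, 85.95, 86.1, 84.6 and 78.4 CPM. In each of these 5 genes CON 1 had the lowest value and the other 4 libraries lay together above it.

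CON 1 was low in nearly all genes of both lists. All 25 genes of the G2 and mitosis list reached 10 CPM. CON 1 was the lowest library for 25 of 25, beside 37.6% of all genes. CON 4 was the highest for 21, beside 19.7% of all genes. The list levels were 5.25, 6.00, 6.10, 6.26 and 5.98 log2 CPM. At least a 2-fold difference was found for 13 of 25 genes (11.5% of all genes), the widest being the spindle checkpoint kinase Ttk with 6.12, 18.1, 13.96, 22.5 and 12.4 CPM. Without CON 1, 0 of the 25 were 2-fold apart, and without CON 4, 7. In the list of G1/S and DNA replication, CON 1 was lowest for 23 of 25 genes, beside 37.6% of all genes. Of the 25, 4 were 2-fold apart (Tyms, Hells, Rfc4 and Ccne1), beside 11.5% of all genes, or 0 without CON 1. Here CON 2 was the highest library for 17 genes, beside 21.7% of all genes. In a bulk sample, fewer dividing cells and less RNA per dividing cell cannot be told apart.

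Of 6 inhibitors of the cycle at 10 CPM or more, 3 were 2-fold apart: Btg2, Btg1 and Cdkn1a. Btg2 and Cdkn1a (p21), both responsive to stress, had 267, 269.8, 1005, 951 and 1065 and 43.7, 52.1, 159, 154 and 172 CPM, with CON 1 and CON 2 low. Cdkn1b (p27) stayed between 6.39 and 9.61 CPM, and Cdkn2a, a mark of senescence, had at most 0.135 CPM. The ratio of Pcna to Mki67 in TPM was 16.4 ± 1.02, with CON 1 at 15.8, inside the range of the other libraries.

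Replication promoters are known for E2F elements and mitotic promoters for the CHR element. The E2F letters GCGGGAAA (searched with its complement, as all motifs were) or TTTGGCGC stood in 6 of 22 windows of G1/S genes (27.3%) beside 427 of all 32851 windows, and the CHR letters TTTGAA in 8 of 23 windows of G2 and mitosis genes (34.8%) beside 16.0% of all windows. The CHR letters also stood in 5 of 17 windows of housekeeping genes (29.4%) and 5 of 19 of cytokine and chemokine genes (26.3%). The first 2 of the stretches below show E2F letters in helicase subunit genes and the last 2 show CHR letters, each in capitals on the strand printed or as its complement.
Mcm6: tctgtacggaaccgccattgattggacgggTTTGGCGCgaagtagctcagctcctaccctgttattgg
Mcm7: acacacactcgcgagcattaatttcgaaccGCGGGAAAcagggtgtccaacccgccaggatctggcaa
Cdk1: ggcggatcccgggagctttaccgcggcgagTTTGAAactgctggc
Top2a: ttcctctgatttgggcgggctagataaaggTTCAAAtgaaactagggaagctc
Their places are chr1:128359715-128359782, minus strand (Mcm6), chr5:138172011-138172078, minus strand (Mcm7), chr10:69352913-69352957, minus strand (Cdk1) and chr11:99024190-99024242, minus strand (Top2a).

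**Figure D4:**
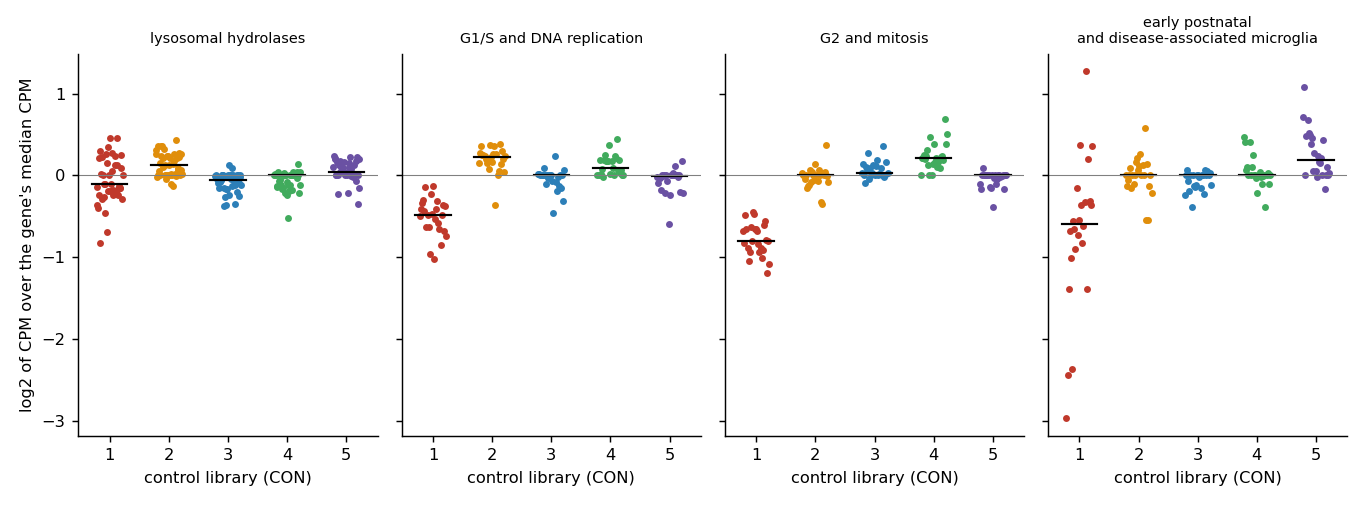
Log2 of each gene's CPM over its own median among the 5 libraries (y axis) for the members with a mean of at least 10 CPM in 4 lists, 1 point per gene, with the median of the list as a black bar. Lysosomal hydrolases lie around 0 in every library. All G2 and mitosis genes lie below 0 in CON 1, and early postnatal genes lie mostly below 0 in CON 1 and above it in CON 5.

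Genes of the early postnatal and disease-associated state were spread over a wide range. All 24 genes reached 10 CPM and 12 were 2-fold apart. Spp1, a secreted phosphoprotein that binds integrins, had 388, 3040.1, 2566, 4212 and 4997 CPM. Gpnmb, a glycoprotein of phagosomes, had 37.3, 186, 203, 270.4 and 428 CPM and the integrin Itgax 11.2, 51.7, 57.8, 76.3 and 82.5 CPM. In these 3 genes CON 1 was lowest and CON 5 highest. Lpl, the lipoprotein lipase, had 174, 436, 477, 476 and 454 CPM, Csf1 47.6, 85.5, 130.4, 125 and 168 CPM and the beta-glucan receptor Clec7a 38.1, 81.8, 67.4, 76.9 and 123 CPM.

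CON 1 was the lowest library for 19 of the 24 genes and CON 5 the highest for 14, beside 37.6 and 16.8% of all genes. The list levels were 7.52, 8.21, 8.15, 8.26 and 8.48 log2 CPM. Without CON 1, 1 of the 24 genes was 2-fold apart. The count was 9 with libraries scaled to total counts and 13 with DESeq2 size factors. Against the order, Apoe and Axl were highest in CON 1, and Vim and Apoc1 as well. Igf1, a growth factor that microglia supply to developing neurons and oligodendrocytes, had 109, 174, 166, 188 and 244 CPM. Per length the list was led by Apoe, Spp1 and Ctsb, with Lyz2 (lysozyme) at 2224 ± 237 TPM, Cd9 at 1471 ± 322 and Gpnmb at 131 ± 79.9 TPM.

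Immediate early genes, which are switched on within minutes of a stimulus, were detected in all libraries at levels that lay in 2 tiers. Fos had 672, 473, 1932, 1796 and 1833 CPM, Egr1 366, 446, 1907, 1778 and 1571 CPM and Jun 378, 350.3, 1358, 1085 and 1028 CPM. Nr4a1, a nuclear receptor, had 121, 128, 1078, 945 and 1266 CPM and Dusp2, a phosphatase of MAP kinases, 18.6, 14.4, 335, 283 and 357 CPM. Every one of these genes was lower in CON 1 and CON 2 than in CON 3, CON 4 and CON 5, with no overlap. Of all genes with a mean of at least 10 CPM, 19.7% had CON 1 and CON 2 below the other libraries. Of 22 genes at 10 CPM or more, 22 were 2-fold apart, and 22 in each setting that left out 1 library. Leaving out 1 library always keeps libraries of both tiers, so these settings could hardly lower the count. The list levels were 5.35, 5.24, 7.52, 7.35 and 7.58 log2 CPM. Klf6 was the narrowest at 2.64-fold, and Dusp2 the widest at 24.7-fold. CON 2 was lowest in 12 of the 22 genes and CON 1 in 10, beside 18.3 and 37.6% of all genes.

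Feedback regulators of NF-kB, the factor that drives inflammatory genes, showed the same tiers. Nfkbia, the inhibitor that ends each pulse of NF-kB, had 97.9, 99.6, 989.8, 853 and 838 CPM. Tnfaip3 (A20, an enzyme that edits ubiquitin chains) had 78.2, 67.3, 724, 657 and 752 CPM, Nfkbiz 69.4, 86.5, 767, 694 and 822 CPM and Cd83 309, 309, 1497, 1447 and 1829 CPM. Other members were narrower: Nfkb1 had 63.4, 52.1, 64.97, 51.7 and 60.3 CPM, Rela 84.4, 79.03, 117, 105 and 126 CPM and Tnip1 16.2, 15.4, 18.1, 17.6 and 15.6 CPM. In all, 10 of 16 genes were 2-fold apart.

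Of 17 cytokines and chemokines at 10 CPM or more, 16 were 2-fold apart. Ccl4 and Ccl3, chemokines that draw in other immune cells, had 83.6, 136, 939, 975 and 1131 and 111, 202, 725, 789 and 930.3 CPM. Tnf had 30.8, 44.05, 492, 546 and 491 CPM, Il1b 40.6, 37.7, 346, 345 and 477 CPM and Il1a 94.1, 92.9, 479, 557 and 583 CPM. Cxcl2, which attracts neutrophils, had 2.06, 4.25, 93.8, 70.4 and 90.2 CPM and Cxcl1 0.474, 2.32, 26.4, 23.4 and 35.8 CPM. In all of these CON 1 and CON 2 lay below the other 3 libraries, as they did for 19.7% of all genes. The exception was Cxcl16, a membrane-bound chemokine, with 27.5, 26.7, 27.3, 29.01 and 30.5 CPM, 1.14-fold from lowest to highest.

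Ccl6 and Ccl9 went with CON 1 alone: Ccl6 had 77.6, 186, 161, 169 and 193 CPM and Ccl9 129, 272, 219.9, 227 and 308 CPM. Per length, Ccl4 at 2594 ± 1969.9 TPM and Ccl3 at 1891 ± 1242 TPM were the most abundant, above Ccl2 at 1142 ± 857 TPM and Tnf at 513 ± 414 TPM. Il6 had 0.422 to 2.79 CPM, Il12b at most 0.240 CPM, Il10 0.0338 to 12.1 CPM and Vegfa at most 0.508 CPM. Tgfb1 had 4.496 to 9.25 CPM. Of 11 heat-shock chaperones, 2 were 2-fold apart, beside 11.5% of all genes. Hspa1a, which has a near-identical copy in Hspa1b, had 11.1, 6.498, 54.5, 35.4 and 66.5 CPM and Dnajb1 61.7, 68.6, 174, 149 and 193 CPM, both low in CON 1 and CON 2.

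The NF-kB motif stood in 10 of 17 promoter windows of the feedback genes (58.8%) and 7 of 19 windows of cytokine and chemokine genes (36.8%), beside 3.899% of all windows. It also stood in 3 of 17 windows of housekeeping genes (17.6%), 4 of 25 of immediate early genes (16.0%) and 4 of 41 of hydrolase genes (9.76%), and in 0 of 26 of microglial identity genes. The CArG box, bound by the serum response factor, stood in 5 of 25 windows of immediate early genes beside 1.47% of all; the 5 windows belong to 2 genes, Egr2 and Zfp36. The stretches below, with these motifs in capitals, belong first to 4 genes of the NF-kB groups and then to those 2 genes.
Cxcl2: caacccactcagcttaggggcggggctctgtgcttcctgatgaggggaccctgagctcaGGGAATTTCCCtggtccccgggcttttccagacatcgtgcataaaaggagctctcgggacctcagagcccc
Cxcl10: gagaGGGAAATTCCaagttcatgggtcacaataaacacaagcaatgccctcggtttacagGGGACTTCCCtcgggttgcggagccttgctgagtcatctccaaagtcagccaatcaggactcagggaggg
Nfkbia: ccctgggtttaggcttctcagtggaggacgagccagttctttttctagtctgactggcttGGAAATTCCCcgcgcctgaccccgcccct
Tnfaip3: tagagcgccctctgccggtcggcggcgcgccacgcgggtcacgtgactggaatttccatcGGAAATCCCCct
Egr2: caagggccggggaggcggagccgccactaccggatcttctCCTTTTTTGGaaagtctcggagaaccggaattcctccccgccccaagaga
Zfp36: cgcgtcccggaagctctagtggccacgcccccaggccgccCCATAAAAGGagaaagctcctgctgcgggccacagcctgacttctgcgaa
They lie at chr5:90903743-90903872, plus strand (Cxcl2), chr5:92348923-92349052, minus strand (Cxcl10), chr12:55492648-55492736, minus strand (Nfkbia), chr10:19015411-19015482, minus strand (Tnfaip3), chr10:67537454-67537543, plus strand (Egr2) and chr7:28379237-28379326, minus strand (Zfp36). In CPM, Cxcl10 had 10.6, 10.6, 209, 247 and 270.2, Egr2 30.3, 52.6, 319, 301 and 329.7 and Zfp36, an RNA-binding protein that ends cytokine messages, 280.4, 265, 1029.5, 916 and 960.0.

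**Figure D5:**
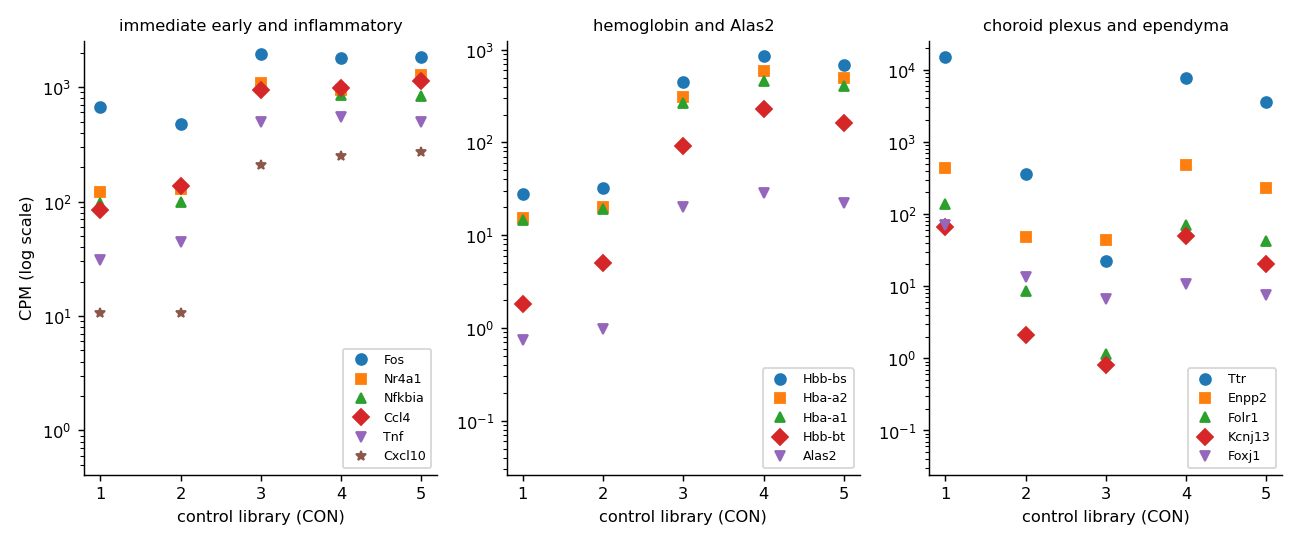
CPM (y axis, log scale) in each of the 5 control libraries (x axis) for immediate early and inflammatory genes, hemoglobin genes with the heme enzyme gene Alas2, and genes of choroid plexus and ependyma. CON 1 and CON 2 are low in the first 2 panels, and CON 2 and CON 3 are low for the choroid plexus genes.

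Among genes of antigen presentation, the class I light chain was abundant and class II was low per length. B2m, which encodes that light chain, had 1084, 1613, 1182, 1061 and 1478 CPM and 3973 ± 713 TPM. Cd74, the class II chaperone, had 42.1, 70.04, 95.3, 92.02 and 87.4 CPM, H2-Aa 4.03, 9.13, 10.9, 13.2 and 17.3 CPM and H2-Ab1 8.73, 14.4, 17.1, 14.4 and 25.7 CPM, and their master regulator Ciita 0 to 1.05 CPM. Per length, Cd74 stood at 145 ± 38.4 TPM and H2-Aa at 25.5 ± 10.9 TPM. Of 13 genes, 3 were 2-fold apart (Cd74, H2-Ab1 and H2-Aa), beside 11.5% of all genes. All 3 were lowest in CON 1, and without CON 1 0 of 13 were 2-fold apart. Among 10 interferon-response genes 5 were, led by Cxcl10, and 3 without CON 3; Ifit3 had 12.7, 8.89, 18.2, 7.11 and 12.4 CPM and Isg15 1.83 to 4.58 CPM. The glucocorticoid-responsive genes Tsc22d3 and Fkbp5 had 73.4, 73.6, 87.1, 79.8 and 86.95 and 23.7, 18.6, 18.6, 13.8 and 19.5 CPM, and the metallothionein Mt1 was steady at 135, 137, 129, 129 and 135 CPM.

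Markers of other macrophages and blood cells were present at uneven levels. The 12 genes of border-associated macrophages, which live in meninges, choroid plexus and around vessels, summed to 2084, 2685, 2856, 2417 and 3049 CPM. Of the mean sum of 2618 CPM, Mrc1 made up 765 and Stab1, which is also in another list here, 584. The share of this sum from border-associated macrophages was not tested. Mrc1, the mannose receptor, had 593, 795, 827, 728 and 884 CPM, Lyve1 189, 280.2, 297, 228 and 318 CPM and Pf4 126, 212, 302, 219 and 317 CPM. Per length, Mrc1 stood at 379 ± 44.9 TPM and Pf4 at 889 ± 274 TPM, on either side of the microglial gene Tmem119. CON 1 was lowest for 9 of the 12 genes, beside 37.6% of all genes, and 5 were 2-fold apart, or 0 without CON 1. The list of 9 monocyte genes summed to 155 to 206 CPM, of which Fn1, a matrix gene that other cells also express, made up most; Ly6c2 had 0.843 to 3.67 CPM. The 12 neutrophil genes summed to 161 to 262 CPM, with S100a8 at 23.01, 41.6, 16.9, 18.3 and 41.3 CPM, while Ly6g was at 0 in 4 of the 5 libraries. Csf3r, which leads that list, is also expressed by other myeloid cells. The 7 mast cell genes summed to 24.00 to 52.9 CPM, nearly all of it Kit and Hdc, and the 6 platelet genes to 30.2 to 53.4 CPM.

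Lymphocyte markers gave an uneven picture. Ighm, the heavy chain of IgM, had 263, 369, 407, 370.4 and 339.6 CPM and Cd79b, a signalling chain of the B cell receptor, 54.2, 68.3, 59.5, 52.4 and 54.03 CPM. Other B cell genes were almost absent: Cd79a had 0.135 to 0.870 CPM and Ms4a1 0 to 0.570 CPM. The T cell genes Cd3e, Cd3d and Cd3g had at most 0.171, 0.0616 and 0.154 CPM, and Cd8a was at 0 in all 5 libraries.

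Erythroid genes followed the tiers of the response genes. Hbb-bs had 27.8, 31.9, 446, 863 and 681 CPM, Hba-a1 14.4, 19.1, 264, 462 and 407 CPM and Alas2, the first enzyme of heme synthesis in red cells, 0.744, 0.984, 20.1, 28.5 and 22.1 CPM. CON 1 and CON 2 lay below the other 3 libraries in Hba-a1, Hba-a2, Hbb-bs, Hbb-bt and Alas2, the 5 of 7 genes that were 2-fold apart. Of all genes, 19.7% had CON 1 and CON 2 lowest in this way. The membrane gene Slc4a1 had at most 3.45 CPM, and Hemgn was at most 0.120 CPM. The 11 measured genes summed to 111, 127, 1179.9, 2221 and 1824 CPM. Brains were not perfused, and the part of remaining blood in the tiers of the response genes was not tested.

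Genes of blood vessels were present in every library. Cldn5, a tight-junction protein of brain endothelium, had 381, 498, 676, 587 and 718 CPM and 1071 ± 229 TPM, and Kdr, the main VEGF receptor, 106, 114, 138, 154 and 162 CPM. The 14 endothelial genes all reached 10 CPM and summed to 1329, 1444, 1735, 1744 and 1857 CPM. Of the 14, 3 were 2-fold apart (Tek, Ocln and Slco1a4), beside 11.5% of all genes. That count was 1 without CON 3 or without CON 4, and 2 without CON 1 or with scaling to total counts. Slc2a1, the glucose transporter Glut1, is also expressed outside endothelium and had 337, 295, 306, 320.5 and 320.3 CPM. Of 7 pericyte and smooth muscle genes at 10 CPM or more 4 were 2-fold apart, with Rgs5 at 156, 202, 304, 379 and 352 CPM, and the 11 genes of that list summed to 395 to 714 CPM. Fibroblast genes summed to 382 to 465 CPM, with Col3a1 at 107, 120.4, 129, 147 and 152 CPM.

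Among 11 astrocyte genes at 10 CPM or more, CON 1 was highest for 10 and CON 5 lowest for 9. Of all genes these shares were 21.7 and 13.3%. Slc1a3, the glutamate transporter GLAST, had 273, 137, 105, 95.3 and 61.8 CPM, Aldoc 101, 35.1, 28.8, 26.2 and 14.4 CPM and the factor Sox9 106, 25.4, 17.8, 27.5 and 19.6 CPM. Gfap was the exception, with 53.03, 111, 48.3, 55.03 and 31.3 CPM and CON 2 highest. The 14 astrocyte genes summed to 1382, 822, 626, 589 and 447 CPM, and 10 of 11 were 2-fold apart. The 16 neuronal genes summed to 77.4 to 115 CPM, with Tubb3 at 16.4, 15.00, 25.02, 16.4 and 20.3 CPM and the glutamate transporter gene Slc17a7 at most 0.114 CPM. Oligodendrocyte-lineage genes summed to 169.9 to 233 CPM, with Mbp at 28.7, 25.9, 31.4, 31.7 and 34.2 CPM.

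Choroid plexus genes differed widely among the libraries. Ttr had 15088, 358, 22.6, 7619.8 and 3603 CPM, Enpp2 (autotaxin) 439, 47.5, 44.1, 485 and 232 CPM, the folate receptor Folr1 136, 8.68, 1.17, 69.97 and 42.3 CPM and the channel Kcnj13 65.4, 2.11, 0.796, 50.3 and 19.97 CPM. Of 8 genes at 10 CPM or more, 8 were 4-fold apart. CON 1 was highest for 7 and CON 3 lowest for 6, beside 21.7 and 15.9% of all genes. In CON 3, Kcnj13, Clic6, Kl, Slc4a5 and Otx2 were all under 1 CPM. The summed level of the 9 genes was 15897, 424, 71.3, 8299 and 3939 CPM. Ependymal genes summed to 208, 58.4, 21.2, 39.2 and 30.2 CPM, led by Foxj1, the master gene of motile cilia, with 69.8, 13.5, 6.54, 10.6 and 7.61 CPM; here CON 1 stood alone above the other 4 libraries. The part of choroid plexus, ependymal and astrocyte RNA in the low values of CON 1 for cell cycle, complement and early postnatal genes was not tested.

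Xist, transcribed from the inactive X chromosome of female cells, was at 0 in all 5 libraries, and the Y-linked gene Ddx3y had 52.3, 57.9, 57.3, 57.2 and 50.9 CPM. Sex is not among the labels used here.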

How the data were processed

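Expected counts per gene for 13 libraries are in 1 table that the authors deposited. The submitters' processing notes name STAR, RSEM and DESeq2 without versions; no source used here gives their settings; the genome build and annotation were also not given in the sources used here. Per the labels' protocols, cDNA was primed with oligo-dT and tagmented with Nextera XT, which keeps no strand, so overlapping and antisense genes cannot be told apart. Expected counts share out the reads of near-identical genes by estimate. The 5 control libraries were matched by the description of each sample. Counts were rounded to whole numbers, scaled by TMM (edgeR 4.0.16, R 4.3.3) and given as CPM; list levels are means of log2 CPM with a prior count of 2. TPM used exon lengths from GENCODE M21, by gene identifier, and left out rRNA genes. Lengths from an annotation other than the authors' may shift TPM. No 2 libraries agreed within sampling noise.

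No groups were compared. A library that stands apart in a level was found by Dixon's criterion, and pairs of libraries were compared by chi-square over genes. Spread is the ratio of the highest to the lowest library and the SD of log2 CPM among genes with a mean of at least 10 CPM. The steps were tested on simulated data with less scatter between libraries than these data have. That test does not show how often the 2-fold rule is met by scatter in these libraries. Named genes are the 20 highest by mean CPM or TPM, the 12 with the largest and the 12 with the smallest SD of log2 CPM at a mean of at least 50 CPM, up to 6 members per list by mean CPM with the widest member and those near 0. Further list members were named for their known roles after their values were seen. Some genes that these rules name are not reported here. The gene lists, and the choice of what to describe, were made with earlier results of these data known. Alternatives were other scalings, filters, lengths, prior counts and leaving out each library. Promoter sequences are RefSeq's for GRCm38.p6, and motifs were searched on both strands of the 250 bases before each start.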

Additional observations from a re-analysis of the deposited data

Results flagged for a closer look

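In 10 of 103 levels checked, 1 library stood apart from the other 4 by Dixon's criterion at 95%, which chance meets in about 1 in 20 groups. CON 1 was the library apart in 6 of the 10, CON 5 in 3 and CON 2 in 1. The 103 levels are not independent, so the 10 cannot be set against that rate as separate cases. The mitochondrial rRNA mt-Rnr2 and the mitochondrial rRNA share, of which it made up most, are both counted for CON 1. Wdr5 was checked because its spread was among the smallest in these data.

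CON 1 was low for 3 lists and 1 gene. Its list level was 6.97 log2 CPM for complement, against 7.41 to 7.52 in the other libraries. For the subunits of the vacuolar ATPase it was 7.08, against 7.42 to 7.54, and for G2 and mitosis 5.25, against 5.98 to 6.26. These levels weigh each member alike. The widest pump gene, Atp6v0d2, was 20.8-fold apart, while the median ratio of the pump genes was 1.27. Summed, the pump genes had 3247 CPM in CON 1 and 3591 to 3898 CPM elsewhere. The complement sum was lowest in CON 4, at 8922 CPM, with 9199 CPM in CON 1. Tmsb4x, a small actin-binding peptide, had 3502 CPM in CON 1 and 4230 to 4441 CPM elsewhere. CON 1 was high for mitochondrial rRNA, which took 1.897% of its counts against 1.11 to 1.24%. The larger mitochondrial rRNA, mt-Rnr2, had 18015 CPM there and 10765 to 12189 CPM elsewhere.

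CON 5 was high for the transcription factors of the lysosome, at 4.90 log2 CPM against 4.60 to 4.67, and for mast cell genes, at 0.38 against -1.12 to -0.74. Most mast cell genes lay under 1 CPM, so that this level rests on few counts. Wdr5 had 48.9 CPM in CON 5 and 50.5 to 51.04 CPM in the others, a small gap that stands out because the other 4 values are so close. Lgmn, a lysosomal protease, had 5088 CPM in CON 2 and 3816 to 4106 CPM in the others. What these gaps go back to was not tested.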

How the results depend on the processing

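Scaling by total counts or by DESeq2 size factors in place of TMM moved 0 of 37 other list levels and 0 of 50 gene levels by more than the SD among libraries. These scalings keep the same average library size on the log scale, so that means over the 5 libraries could hardly move. The counts of 0 therefore do not show that levels are independent of the scaling. With library sizes that leave out the most abundant gene and mitochondrial transcripts, the median gene shifted by 0.31 log2. Levels then became 9.76 log2 CPM for microglial identity, 8.21 for lysosomal hydrolases, 6.07 for pattern recognition receptors and 6.44 for endothelium, and the 100 most abundant genes took 26.7%. Under that setting 22 of 37 other list levels and 4 of 4 marker levels moved too. Ranked by TPM, which leaves out rRNA genes, the 100 genes took 20.5% of all counts. Among the genes left out, CT010467.1 held a mean of 16.8% and mitochondrial rRNA 1.32% of counts. The 20.5% and the 40.2% from the ranking by CPM are therefore shares of unlike sets. Genes detected were 8541 at a mean of 10 CPM in place of 1. Genes 2-fold apart were 15515 with no filter, 103 at a mean of at least 100 CPM, and 264 at a ratio of 4. With 1 library left out and the filter applied to the remaining 4, they were 470 to 928, the fewest without CON 1. Leaving out 1 library gave 13239 to 13515 genes detected, 39.8 to 40.5% for the 100 genes, and list levels of 9.40 to 9.47 for identity, 7.86 to 7.92 for hydrolases, 5.83 to 6.07 for G2 and mitosis, 5.72 to 5.81 for pattern recognition, 6.38 to 6.94 for immediate early genes, 2.23 to 3.14 for erythroid genes and 6.08 to 6.18 for endothelium. Of 50 gene levels, 1 (Rpl22, without CON 5) moved in these settings. Apart from rescaling, leaving out 1 library shifts a mean over 5 by less than the SD among them. The rule could therefore hardly find a move. A prior count of 0.5 moved 4 of 37 list levels. With the control library marked as excluded added, 1314 genes were 2-fold apart. The counts of list members without 1 library or under another scaling, and the TPM ranking by longest transcript, were chosen after seeing the data. No paired analysis was possible because only 1 group is described. Values well under 1 CPM in lists of other cells rest on few counts (3 counts were 0.0853 to 0.105 CPM), and nothing can be read from their ratios. Members with a mean under 10 CPM were left out of the 2-fold counts.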

Other observations

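Proportions of subunits and partners are given here as ratios of TPM. In these libraries C1qb stood to C1qa as 1.78 ± 0.116, C1qc to C1qa as 1.14 ± 0.0673, and Tyrobp to its receptor Trem2 as 2.90 ± 0.160. Ifngr1 stood to Ifngr2 as 5.95 ± 0.778. Tgfbr1 to Tgfbr2 was less even, at 1.23 ± 0.380, with 1.73 in CON 2 and 0.843 in CON 3. The TPM of different genes depends on the exon lengths used.

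Among the 264 genes that were at least 4-fold apart, CON 1 and CON 4 were both the highest for 100. That is 37.9%, against 8.59% of all genes with a mean of at least 10 CPM. CON 1 and CON 2 were both the lowest for 87 (33.0% against 19.7% of all), and CON 2 and CON 3 for 81 (30.7% against 7.14%). The predicted mitochondrial pseudogene Gm28661 had 174, 130.2, 64.5, 22.1 and 0 CPM and may share reads with mitochondrial transcripts, so that its level is uncertain. Y-linked transcripts besides Ddx3y were also present, with Eif2s3y at 43.8, 68.04, 51.9, 52.9 and 45.9 CPM and Uty at 18.3, 22.02, 16.3, 20.5 and 16.9 CPM.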
